A study of Mus musculus with 41 samples.

Results

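A group of 10 genes of Wnt signalling was followed in bone: Dkk1, Dkk2, Dkk3, Sfrp1, Sfrp2, Sfrp4, Frzb, Wif1 and Notum, which encode secreted proteins that are known or named as Wnt antagonists, and Axin2, a gene that beta-catenin switches on and that is widely used as a readout of the pathway. They were taken by symbol, and these 10 of the 43346 genes in the count table were all read in every mouse. RNA had been sequenced from tibia diaphyses, the shafts of the shin bones, which were centrifuged before extraction. The 41 mice were female, on a C57BL/6 background, and all carried the INK-ATTAC transgene, in which a fragment of the p16Ink4a promoter drives a caspase that the drug AP20187 (AP) dimerizes, so that cells with an active promoter can be removed. The young group held 12 mice, the old vehicle group 13 and the old AP group 16, the last dosed with AP at 10 mg per kg 2 times a week for 4 months from the age of 20 months. Young mice are also marked as vehicle in the labels. The labels give 6 to 12 months for the young group and 20 months for the old groups, whereas the study's methods give 6 months and, at sacrifice, 24 months. No group lacks the transgene and no young group received AP, so an effect of AP apart from the removal of cells, or of AP in young bone, cannot be told apart from these samples. The drug acts in any cell in which the promoter fragment is active, and bulk RNA does not show which cells those are.

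Wnt ligands bind a Frizzled receptor together with the co-receptor Lrp5 or Lrp6, after which beta-catenin escapes degradation and enters the nucleus, where it acts with TCF and LEF factors. The pathway is known in bone for driving osteoblast differentiation and bone formation. Its secreted antagonists act at different steps. Dkk1 and Dkk2 bind Lrp5 and Lrp6, and Dkk3 is a relative that does not bind these co-receptors in the same way. The Sfrp proteins and Frzb, which is also called Sfrp3, carry a Frizzled-like domain that binds the ligand, Wif1 binds the ligand through another domain, and Notum is an enzyme that cuts the lipid from the Wnt protein. Axin2 is a scaffold of the complex that degrades beta-catenin and so acts as negative feedback inside the cell.

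Because beta-catenin acts through TCF and LEF factors, the stretches around the start sites were searched on both strands for 4 runs of letters, namely CTTTGAA in the first place, then CTTTGAT as the next, then CTTTGTA as another, and last of them CTTTGTT. RefSeq windows of 300 bases (250 before to 50 after the start, GRCm38.p6) were matched for 6 of the 10 genes: Dkk1, Dkk2, Sfrp2, Frzb, Wif1 and Axin2. Those of Dkk3, Sfrp1, Sfrp4 and Notum were not matched. Of these 6 windows only that of Dkk1 held the letters, beside 16.9% of 32851 windows of the same length in the whole table. The 30 bases of Dkk1 that hold both of its matches (chr19:30549588-30549617, minus strand, written from position -121 to -92 of the RefSeq start) are shown with the matches in capitals. The count table's own Dkk1 gene begins 169 bases further upstream, and in GENCODE M21 these 30 bases lie in the untranslated part of exon 1. The 250 bases before the start of Dkk2 (chr3:132085042-132085291, plus strand) and of Axin2 (chr11:108920099-108920348, plus strand) are shown because these 2 genes varied together from mouse to mouse, as described further on. A link between these sequences and that relation was not tested. Capitals in the Dkk2 sequence mark the letters TATAAA, which begin at position -32. Read on the gene's strand alone, the same letters begin at -54 in the Dkk1 window, are not in the other 4 windows, and are in 8.32% of all windows. A match is a run of letters and was not tested as a binding site.
Dkk1: aaagCTTTGAAatcccatcccggCTTTGTT
Dkk2: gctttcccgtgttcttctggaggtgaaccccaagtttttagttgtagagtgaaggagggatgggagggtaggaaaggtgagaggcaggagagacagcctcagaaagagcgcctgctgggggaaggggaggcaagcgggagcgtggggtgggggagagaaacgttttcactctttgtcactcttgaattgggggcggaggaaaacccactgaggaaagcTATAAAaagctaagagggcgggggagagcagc
Axin2: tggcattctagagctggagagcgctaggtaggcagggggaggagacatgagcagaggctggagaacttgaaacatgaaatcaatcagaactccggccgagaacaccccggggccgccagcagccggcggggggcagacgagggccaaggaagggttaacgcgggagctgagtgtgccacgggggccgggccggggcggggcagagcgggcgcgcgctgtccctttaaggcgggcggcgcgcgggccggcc

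Between 37028959 and 75942717 reads were counted per mouse (median 47774880), and the 10 genes had from 56 reads (Notum) to 11456 reads (Wif1) in a mouse. Levels are given in CPM, the counts scaled to a common library size, which correct for depth and not for gene length. A gene is called changed where edgeR's quasi-likelihood test gave an adjusted p under 0.05 (Benjamini-Hochberg over 19292 genes) and the log2 fold change was above 0.5 or below -0.5. By this rule 9.06% of all genes were called between the old vehicle-treated and young mice (4.30% higher and 4.76% lower with age), 0.0726% between the AP-treated and vehicle-treated old mice, and 8.58% between the AP-treated old and young mice (3.73% higher and 4.85% lower). Cdkn2a, the gene of p16Ink4a, lay at 0.596 ± 0.307 CPM (SD, n = 12) in young, 2.78 ± 2.02 (n = 13) in vehicle-treated and 1.75 ± 1.70 (n = 16) in AP-treated mice. Its log2 fold change was 2.22 ± 0.43 with age (adjusted p = 3.32e-04) and -0.67 ± 0.37 for AP against vehicle (adjusted p = 0.265), and that of Cdkn1a, another gene of cell cycle arrest, was 0.49 ± 0.18 (adjusted p = 0.0437) and -0.32 ± 0.16 (adjusted p = 0.218). Osteocyte markers, which define this tissue, were all read, and their summed level ranged from 1029 to 1603 CPM in young mice, from 946 to 2179 in vehicle-treated mice and from 283 to 3411 in AP-treated mice. AP-treated mice 18 and 19 stood apart with the 2 lowest osteocyte sums, 283 and 289 CPM, against at least 1019 CPM in the other AP-treated mice, and mouse 18 also had the highest T cell sum, 477 CPM. They had the 2 lowest skeletal muscle sums of the AP-treated mice as well (21811 and 10254 CPM) and chondrocyte sums of 2020 and 1485 CPM, against 226 to 1535 CPM in the others. The labels give the same tissue for all mice, and whether these 2 samples held another part of the bone was not tested. The labels name no batch. Young mice carry numbers 30 to 41 and old mice 1 to 29, so a batch that followed the numbering and age cannot be told apart.

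In old vehicle-treated compared with young mice, the antagonists moved in both directions. Notum and Dkk2 rose, Dkk3, Frzb and Sfrp4 fell, and the levels of Dkk1, Sfrp1, Sfrp2 and Wif1 were not called. Of the 10 genes 5 were called (2 higher, 3 lower), beside 9.06% of all genes (4.30% higher, 4.76% lower), and the median log2 fold change was 0.09 over the 10 genes and 0.01 over all genes tested. The levels of all 10 genes overlapped between the groups.

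**Figure D1:**
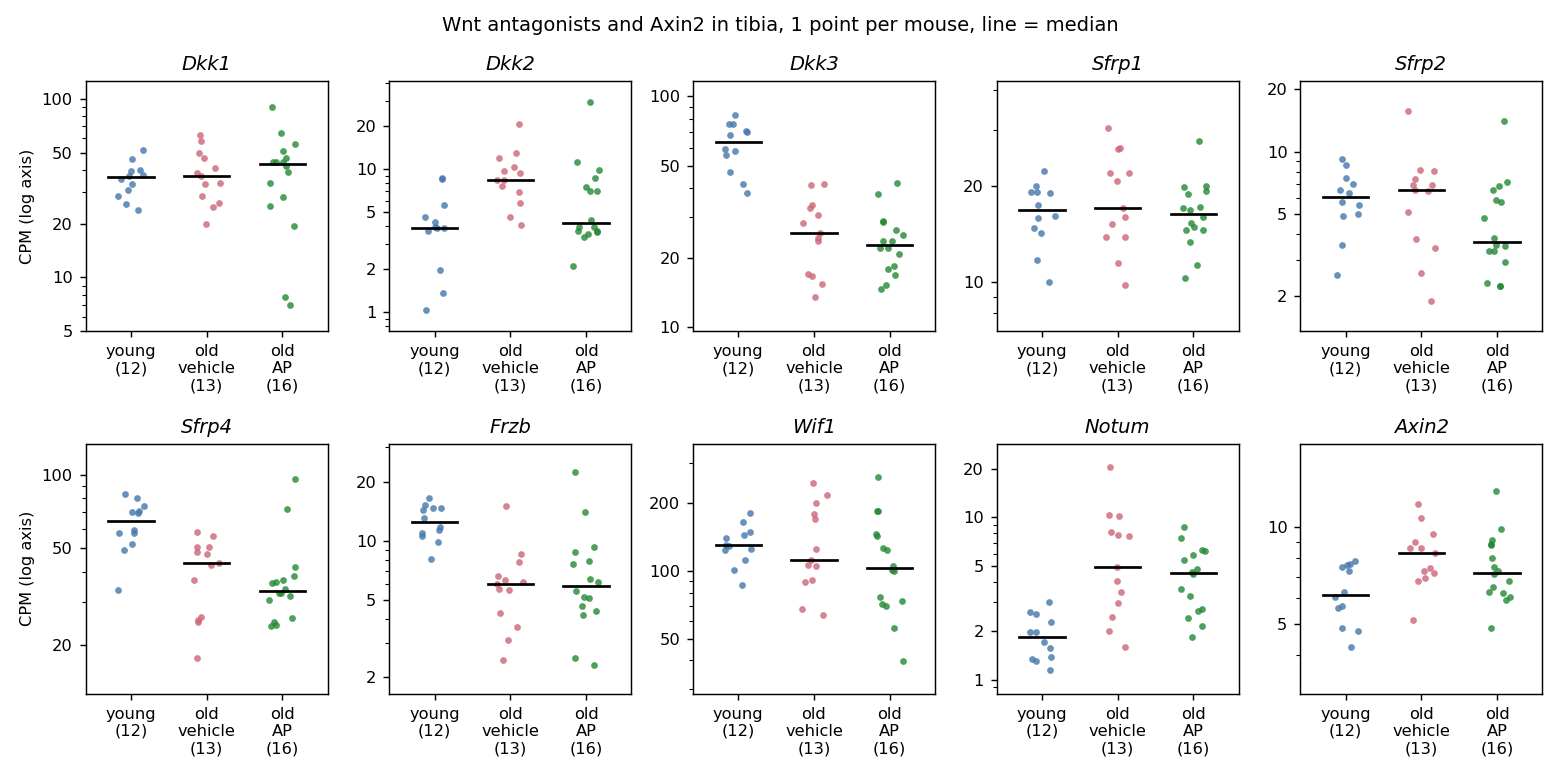
CPM of each gene on a log axis, with 1 point per mouse, the number of mice per group in brackets and a line at the median. Dkk3 sits lower in both old groups than in the young group and Notum higher, while the AP-treated and vehicle-treated points overlap in every panel and Dkk1 has 2 AP-treated mice, at 6.998 and 7.74 CPM, far below the rest.

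Notum (ENSMUSG00000042988, chromosome 11, 120653788 to 120661175), the enzyme that inactivates Wnt by removing its lipid, ranged from 1.15 to 3.01 CPM in young mice with a median of 1.84. In vehicle-treated mice it ranged from 1.60 to 20.3 CPM with a median of 4.98, and 9 of these 13 mice were above every young mouse. The log2 fold change was 1.80 ± 0.31 (SE), a 3.47-fold increase (adjusted p = 8.75e-05). Vehicle-treated mouse 16 was the highest of its group at 20.3 CPM, and without it the log2 fold change was 1.52 (adjusted p = 2.30e-04).

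Dkk2 (ENSMUSG00000028031, chromosome 3, 132085292 to 132180293), the antagonist at Lrp5 and Lrp6 whose start region is printed above, ranged from 1.03 to 8.67 CPM in young mice (median 3.91). It ranged from 4.09 to 20.7 CPM in vehicle-treated mice (median 8.46), so that every vehicle-treated mouse was above the young median and 6 of 13 were above every young mouse. The log2 fold change was 1.12 ± 0.34 (adjusted p = 0.0181).

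Dkk1 (ENSMUSG00000024868, chromosome 19, 30545863 to 30549665), the best known of these co-receptor antagonists in bone and a gene of the study's SenMayo list, ranged from 23.9 to 51.8 CPM in young mice (median 36.3) and from 19.8 to 63.0 CPM in vehicle-treated mice (median 37.2). Both medians lay well inside the other group's range, and the log2 fold change of 0.11 ± 0.25 was not called (adjusted p = 0.811).

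Dkk3 (ENSMUSG00000030772, chromosome 7, 112116019 to 112159057), the divergent Dickkopf, ranged from 38.1 to 83.3 CPM in young mice (median 63.5) and from 13.48 to 41.9 CPM in vehicle-treated mice (median 25.7). All 13 vehicle-treated mice were below the young median and 11 were below every young mouse. The log2 fold change was -1.22 ± 0.17, a 2.34-fold decrease (adjusted p = 6.01e-06).

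Among the ligand-binding antagonists of the Sfrp family, Frzb and Sfrp4 fell and Sfrp1 and Sfrp2 were not called. Frzb (ENSMUSG00000027004, chromosome 2, 80411970 to 80447625), which is best known from cartilage, ranged from 8.10 to 16.6 CPM in young mice (median 12.4) and from 2.46 to 14.98 CPM in vehicle-treated mice (median 6.00), of which 11 were below every young mouse. Its log2 fold change was -1.02 ± 0.26 (adjusted p = 0.00547). Sfrp4 (ENSMUSG00000021319, chromosome 13, 19623175 to 19632821) ranged from 33.7 to 83.6 CPM in young mice (median 64.3) and from 17.6 to 57.9 CPM in vehicle-treated mice (median 43.3). All 13 vehicle-treated mice lay below the young median of Sfrp4, 4 of them below every young mouse, and its log2 fold change was -0.64 ± 0.20 (adjusted p = 0.0181).

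Sfrp1 (ENSMUSG00000031548, chromosome 8, 23411502 to 23449632) ranged from 10.1 to 22.3 CPM in young mice (median 16.8) and from 9.84 to 30.5 CPM in vehicle-treated mice (median 17.1), and its log2 fold change was 0.18 ± 0.15 (adjusted p = 0.455). Sfrp2 (ENSMUSG00000027996, chromosome 3, 83766321 to 83774316) ranged from 2.52 to 9.19 CPM in young mice (median 6.01) and from 1.90 to 15.6 CPM in vehicle-treated mice (median 6.55), and its log2 fold change was 0.08 ± 0.27 (adjusted p = 0.875). For both genes the vehicle-treated mice spread over and beyond the young range, and the highest vehicle-treated mouse was mouse 16. Wif1 (ENSMUSG00000020218, chromosome 10, 121033960 to 121100650), the most abundant of the 10 genes, ranged from 86.4 to 180.1 CPM in young mice (median 129.7) and from 63.8 to 246.1 CPM in vehicle-treated mice (median 112.1), again with mouse 16 the highest. Its log2 fold change was 0.05 ± 0.23 (adjusted p = 0.910).

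Axin2 (ENSMUSG00000000142, chromosome 11, 108920349 to 108950783), the target gene, ranged from 4.23 to 7.84 CPM in young mice (median 6.17) and from 5.13 to 11.9 CPM in vehicle-treated mice (median 8.35). It was above the young median in 12 of 13 vehicle-treated mice, and its adjusted p was 0.0270, but its log2 fold change of 0.40 ± 0.13 was under the fold threshold and it was not called.

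After 4 months of AP, none of the 10 genes was called against the old vehicle-treated mice by edgeR, DESeq2 or limma-voom. By edgeR 0.0726% of all genes were called. None of the 10 had an unadjusted p under 0.05 by edgeR, whereas 4620 of all 19292 genes tested did. The lowest p of the 10 was that of Notum, which ranged from 1.83 to 8.72 CPM in AP-treated mice (median 4.54). Its log2 fold change was -0.54 ± 0.28 (p = 0.0565, adjusted p = 0.220). No AP-treated mouse was below the lowest vehicle-treated mouse in Notum, and without vehicle-treated mouse 16 the log2 fold change was -0.27 (adjusted p = 0.567). The median of Dkk2 was 4.195 CPM in AP-treated mice against 8.46 CPM in vehicle-treated mice, but the AP-treated range of 2.09 to 29.4 CPM enclosed all vehicle-treated mice. Its log2 fold change was -0.40 ± 0.31 (adjusted p = 0.435), and it was -0.74 (adjusted p = 0.109) without AP-treated mouse 28, the mouse at 29.4 CPM. Without vehicle-treated mouse 22 it was -0.24.

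Dkk1 ranged from 6.998 to 89.9 CPM in AP-treated mice (median 43.0), a wider range than in either other group, and its log2 fold change was 0.06 ± 0.23 (adjusted p = 0.887). Its 2 lowest mice were 18 and 19, and its log2 fold change without both was 0.22 (adjusted p = 0.606). The same mice were the highest of the AP-treated group in Frzb, at 22.4 and 14.1 CPM against a group median of 5.85. The log2 fold change of Frzb turned from 0.22 ± 0.25 (adjusted p = 0.581) to -0.13 (adjusted p = 0.813) without them. No gene of the table was called between the AP-treated and vehicle-treated mice when mice 18 and 19 were left out, against 14 genes with them.

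The other 6 genes had log2 fold changes between -0.39 ± 0.25 (Sfrp2) and -0.07 ± 0.18 (Sfrp4), with adjusted p from 0.347 to 0.830. These sizes moved with single mice, and none of the genes was called in any of the 29 fits that left 1 mouse out. The log2 fold change of Sfrp2 was -0.20 without vehicle-treated mouse 16 and -0.58 (adjusted p = 0.108) without AP-treated mouse 10, and that of Sfrp4 was -0.22 without mouse 10 and -0.02 without vehicle-treated mouse 7. Without mouse 16 it was -0.08 for Dkk3, -0.10 for Sfrp1 and -0.13 for Wif1. It reached -0.36 for Wif1 without AP-treated mouse 27 and -0.22 for Dkk3 without AP-treated mouse 12, and Axin2 lay between -0.18 and -0.06 (without AP-treated mouse 9 and vehicle-treated mouse 22). Sfrp2 ranged from 2.25 to 14.02 CPM in AP-treated mice (median 3.68) and Sfrp4 from 23.98 to 95.7 CPM (median 33.3), and mouse 10 was the highest in both. Dkk3 ranged from 14.7 to 42.0 CPM (median 22.9), Sfrp1 from 10.3 to 27.7 (median 16.4), Wif1 from 39.8 to 261.7 (median 103.0) and Axin2 from 4.86 to 13.03 (median 7.21). All of these ranges overlapped those of the vehicle-treated mice.

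The AP-treated mice were also set against the young mice, the same 12 controls that the vehicle-treated mice were compared with. Of the 10 genes 4 were called (1 higher and 3 lower), beside 8.58% of all genes (3.73% higher and 4.85% lower). Notum was higher by 1.25 ± 0.30 on the log2 scale (adjusted p = 0.00315), and 11 of 16 AP-treated mice were above every young mouse. Dkk3 was lower by a log2 fold change of -1.37 ± 0.16 (adjusted p = 2.26e-07), with 15 of 16 mice below every young mouse. Sfrp4 (-0.71 ± 0.19, adjusted p = 0.00692) and Frzb (-0.79 ± 0.25, adjusted p = 0.0237) were lower as well. Dkk2 (0.72 ± 0.33, adjusted p = 0.120) and Axin2 (0.28 ± 0.12, adjusted p = 0.107) were not called in this comparison, whereas the log2 fold changes against the same young mice had been 1.12 and 0.40 in the vehicle-treated mice. Without AP-treated mouse 28 the log2 fold change of Dkk2 against the young mice was 0.38 (adjusted p = 0.370). With the skeletal muscle marker score in the model, described further on, Dkk2 was called in the AP-treated mice as well (0.70, adjusted p = 0.0411). Since neither gene was called between the AP-treated and vehicle-treated mice, a difference between the old groups is not shown.

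**Figure D2:**
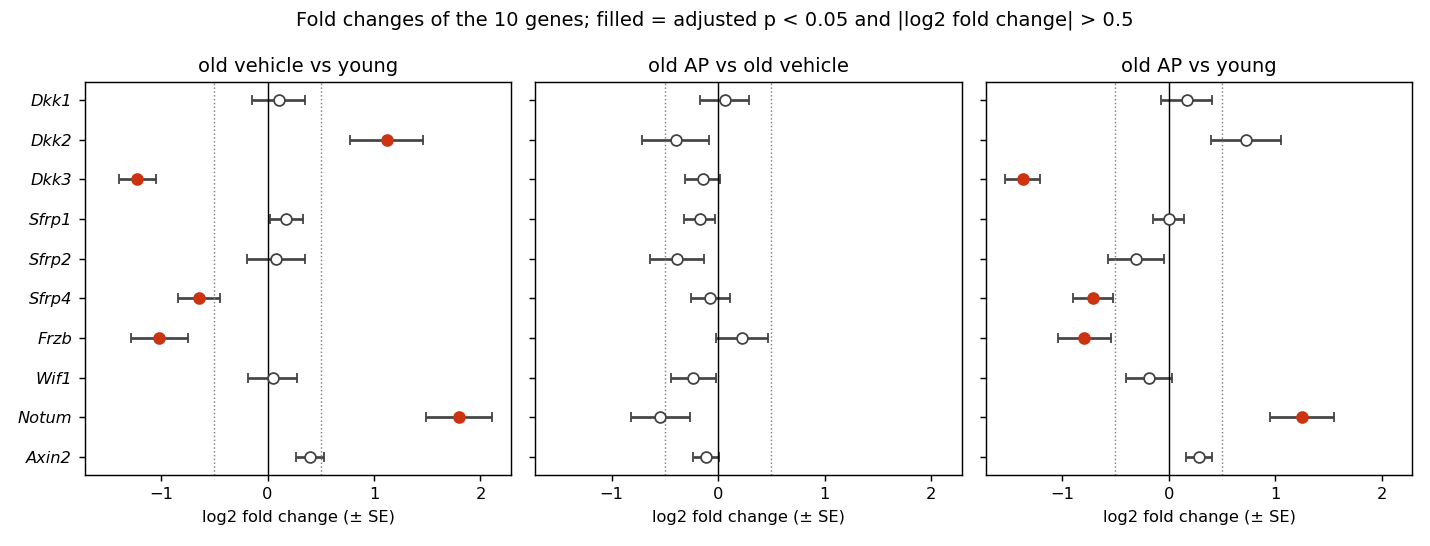
Log2 fold change of each gene in the 3 comparisons, with bars of 1 SE on each side, dotted lines at the fold threshold and filled points where the gene was called. Filled points lie on both sides of 0 against the young mice (Notum at 1.80 and 1.25, Dkk3 at -1.22 and -1.37), and no point is filled between the old groups.

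The coefficient of variation of 9 of the 10 genes was larger in vehicle-treated than in young mice and that of all 10 was larger in AP-treated than in young mice, as a description with no test. The share over all genes was not computed, so a larger spread in old mice is not shown to be particular to these genes. For Notum it was 31.4% in young, 77.5% in vehicle-treated and 44.6% in AP-treated mice, for Frzb 20.4%, 50.7% and 68.1%, and for Dkk1 22.5%, 33.7% and 51.8%. Dkk2 was the exception, at 56.2% in young and 46.4% in vehicle-treated mice, and Axin2 lay between 20.5% and 25.9% in all 3 groups. Single mice set some of these values. Without mouse 28 the coefficient of variation of Dkk2 in AP-treated mice fell from 92.5% to 49.3%, under that of the young mice, and without AP-treated mouse 10 that of Sfrp2 fell from 60.5% to 40.3%. That of Frzb was 33.3% in vehicle-treated mice without mouse 22, and in AP-treated mice it was 47.5% without mouse 18 and 37.2% without mice 18 and 19. Dkk1 in AP-treated mice stood at 39.3% without both. The count in AP-treated mice was 9 of 10 without mouse 28 (Dkk2), mouse 9 (Axin2) or mouse 29 (Sfrp1), and that in vehicle-treated mice was 8 without mouse 7, mouse 22 or young mouse 36.

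To compare the genes with each other, levels were divided by the summed exon length given in the count table, on the FPKM scale. In young bone Wif1 was highest at 54.4 ± 10.7 FPKM (SD, n = 12), followed by Sfrp4 at 36.01 ± 8.17, Dkk3 at 18.5 ± 4.31 and Dkk1 at 14.7 ± 3.32, of which Dkk3 and Dkk1 did not differ beyond their spread. Frzb (3.89 ± 0.79), Sfrp1 (3.81 ± 0.82) and Sfrp2 (2.80 ± 0.90) came next, and Dkk2 (1.16 ± 0.65), Axin2 (1.14 ± 0.23) and Notum (0.79 ± 0.25) were lowest. Frzb and Sfrp1, and Dkk2 and Axin2, were also within 1 SD of each other. In vehicle-treated mice Wif1 (56.2 ± 24.5 FPKM) and Sfrp4 (23.1 ± 7.52) stayed at the top, with Dkk1 (15.9 ± 5.35) within 1 SD of Sfrp4 and above Dkk3 (7.92 ± 2.81), and the 6 lowest genes from Sfrp1 (4.31 ± 1.44) to Axin2 (1.502 ± 0.32) each lay within 1 SD of the next. Notum, the lowest of the 10 in young bone, was in place 7 at 2.75 ± 2.13 FPKM. The AP-treated mice had the same first 6 genes in the same order, from Wif1 (47.9 ± 23.7 FPKM) to Sfrp2 (2.26 ± 1.37), and Axin2 was again the lowest (1.39 ± 0.36).

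The bone preparation holds several cell types, and in bulk RNA fewer cells of a type cannot be told apart from less RNA per cell. The markers of several of these cells moved with age as well. Summed fibroblast markers ranged from 2528 to 5215 CPM in young mice, from 739 to 3587 in vehicle-treated mice and from 635 to 3587 in AP-treated mice, and 4 of 8 of them (Col3a1, Postn, Dcn and Pdgfra) fell in vehicle-treated and in AP-treated against young mice. Osteoblast markers ranged from 35463 to 89515 CPM in young and from 15850 to 79660 in vehicle-treated and from 6871 to 69971 in AP-treated mice, and 3 of 9 fell in vehicle-treated mice (Bglap, Bglap2 and Ibsp) and 6 of 9 in AP-treated mice. Chondrocyte markers ranged from 939 to 2704 CPM in young and from 377 to 1864 in vehicle-treated and from 226 to 2020 in AP-treated mice, and 2 of 11 tested fell in both (Col2a1 and Col9a1). The median log2 fold change of the 11 was -0.42 in vehicle-treated against young mice, 0.64 in AP-treated against young and 1.08 in AP-treated against vehicle-treated mice. Without mice 18 and 19 the last 2 medians were -0.83 and -0.42, and 4 of the 11 fell in AP-treated against young mice (also Col9a2 and Hapln1). Marrow stromal markers ranged from 1194 to 2476 CPM in young and from 687 to 1994 in vehicle-treated and from 999.9 to 1758 in AP-treated mice, and 2 of 5 fell in vehicle-treated (Lepr and Cxcl12) and 1 in AP-treated mice (Cxcl12). Skeletal muscle markers ranged from 20238 to 115391 CPM in young and from 19333 to 157712 in vehicle-treated and from 10254 to 120867 in AP-treated mice, and 3 of 13 rose in vehicle-treated and 1 in AP-treated mice. B cell markers ranged from 165.7 to 517 CPM in young, from 73.8 to 333 in vehicle-treated and from 95.2 to 393 in AP-treated mice, and 6 of 9 fell in vehicle-treated and 1 in AP-treated mice. Erythroid markers ranged from 5520 to 22247 CPM in young, from 2038 to 11822 in vehicle-treated and from 2510 to 18963 in AP-treated mice, and 3 of 9 fell in vehicle-treated and 2 in AP-treated mice. Tendon markers ranged from 158 to 596 CPM in young, from 212 to 1079 in vehicle-treated and from 175 to 793 in AP-treated mice, and 2 of 6 fell in both, while 1 rose in vehicle-treated mice. Of 6 osteocyte markers, Mepe and Sost rose and Phex fell in vehicle-treated and in AP-treated mice, and Pdpn fell in AP-treated mice. Against young mice, 3 of 7 T cell markers (Cd3e, Cd3g and Cd8a) and 2 of 9 neutrophil markers (Ltf and Mpo) rose in AP-treated mice and no marker of either list was called in vehicle-treated mice, a difference that was not tested. Without mice 18 and 19 both counts were 0, Pdpn was not called, 4 in place of 6 osteoblast markers, 4 in place of 2 erythroid markers and 2 in place of 1 marrow stromal marker fell, and the B cell marker Pax5 was no longer called. In other lists, 1 of 6 adipocyte markers rose and 1 fell in vehicle-treated mice and 1 fell in AP-treated mice, 1 of 6 smooth muscle and pericyte markers rose in vehicle-treated mice, 1 of 7 macrophage markers fell in each, and no osteoclast or endothelial marker was called. No marker of any of the 17 lists was called between AP-treated and vehicle-treated mice. No list had a marker at 0 in every mouse.

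Each gene was set against the marker score of 17 cell types over the 41 mice, with the group means removed so that only differences between mice of one group count. A score is the mean of the standardized log2 CPM of the listed markers, none of which is one of the 10 genes. With Cdkn2a this gave 187 relations, whose p-values come from 100000 permutations within groups and are adjusted over all of them, and all points of a relation share the same libraries. Of the 10 genes, Dkk1 and the osteocyte score had the highest correlation (r = 0.95, rho = 0.87, adjusted p = 1.87e-04 for r and 2.08e-04 for rho, in which 1.00e-05 before adjustment is the smallest p the permutations can give), and r was 0.89 without mice 18 and 19, which are also the 2 mice farthest from the median score. Those markers include Sost, another Wnt antagonist of osteocytes. Wif1 varied with the osteoblast score (r = 0.90, rho = 0.86, adjusted p = 1.87e-04 and 2.08e-04, r = 0.87 without the 2 farthest mice). Notum (r = 0.72, rho = 0.85, adjusted p = 1.87e-04 and 2.08e-04, r = 0.69) and Sfrp1 (r = 0.55, rho = 0.63, adjusted p = 0.00197 and 7.48e-04, r = 0.55) also had their highest r with osteoblasts. With the marrow stromal score Sfrp1 had an r of 0.53 (rho = 0.55, adjusted p = 0.00748 and 0.00288), and without the 2 mice farthest from the median of that score this r, 0.70, was above the one with osteoblasts.

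Dkk3, Sfrp2 and Sfrp4 had their highest r with fibroblast or tendon markers. Dkk3 had its highest r with the tendon score (r = 0.76, rho = 0.73, adjusted p = 1.87e-04 and 2.08e-04, r = 0.76 without the 2 farthest mice), whereas by rho and without the 2 farthest mice the fibroblast score was the closer one. The r with the fibroblast score was 0.75 for Dkk3 (rho = 0.80, adjusted p = 1.87e-04 and 2.08e-04), 0.72 for Sfrp2 (rho = 0.63, adjusted p = 1.87e-04 and 7.19e-04) and 0.67 for Sfrp4 (rho = 0.62, adjusted p = 2.88e-04 and 7.19e-04). Without the 2 farthest mice these were 0.80, 0.72 and 0.68. In Sfrp4 the relation was weaker among the young mice (r = 0.27) than among the vehicle-treated (0.77) and AP-treated mice (0.75), a difference that was not tested. Other scores went with Sfrp4 and Dkk3 too. Sfrp4 had an r of 0.47 with the osteoblast score (rho = 0.41, adjusted p = 0.0220 and 0.0349, r = 0.50 without the 2 farthest mice), which was 0.87 among the vehicle-treated, 0.35 among the AP-treated and -0.003 among the young mice, and Dkk3 had an r of 0.44 with the osteocyte score (rho = 0.38, adjusted p = 0.0194 and 0.05055, r = 0.48) and of 0.62 with smooth muscle and pericytes (rho = 0.69, adjusted p = 8.18e-04 and 2.08e-04, r = 0.58). Frzb had its highest r with the chondrocyte score (r = 0.85, rho = 0.78, adjusted p = 1.87e-04 and 2.08e-04), with an r of 0.78 without mice 18 and 19. Dkk2 (r = 0.62, rho = 0.72, adjusted p = 6.23e-04 and 2.08e-04, r = 0.59 without the 2 farthest mice) and Axin2 (r = 0.70, rho = 0.68, adjusted p = 1.87e-04 and 2.08e-04, r = 0.60) had theirs with skeletal muscle. Axin2 also had the lowest r of these genes with any score, with macrophages (r = -0.68, rho = -0.61, adjusted p = 1.87e-04 and 7.48e-04, r = -0.62 without the 2 farthest mice), and Dkk2 had its lowest with erythroid cells (r = -0.54, rho = -0.66, adjusted p = 0.00296 and 3.40e-04, r = -0.58).

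**Figure D3:**
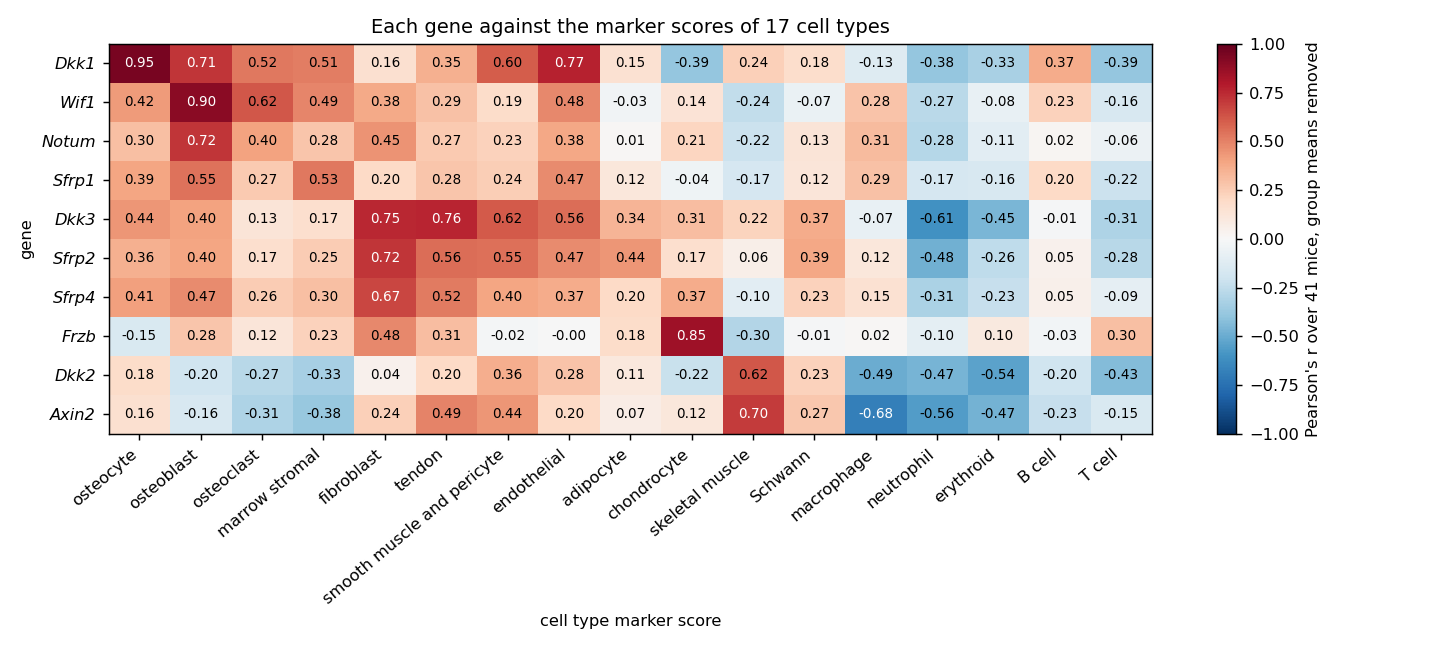
Pearson's r of each gene (rows) with the marker score of each cell type (columns) over 41 mice, group means removed, with the value written in each cell. The highest value is 0.95 for Dkk1 with osteocytes, Wif1 and Notum follow osteoblasts at 0.90 and 0.72, Dkk3 follows tendon (0.76) and fibroblasts (0.75), Sfrp2 and Sfrp4 fibroblasts, Frzb chondrocytes and Dkk2 and Axin2 skeletal muscle.

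The changes with age were then recomputed with a score as a term of the model. Dkk3 and Notum were called with each of the 7 scores tried, in both comparisons with the young mice. With the fibroblast score the log2 fold change in vehicle-treated mice was -0.79 for Dkk3 (adjusted p = 6.69e-05), -0.21 for Sfrp4 (adjusted p = 0.387) and -0.55 for Frzb (adjusted p = 0.153), so that Sfrp4 and Frzb were no longer called. Dkk2 was not called in that fit either (0.99, adjusted p = 0.0742). Sfrp2 (0.67, adjusted p = 0.0227) and Axin2 (0.53, adjusted p = 0.00954) were called higher in that fit. With the chondrocyte score Frzb was still called at -0.85 (adjusted p = 6.47e-05). With the skeletal muscle score Dkk2 was called at 0.94 (adjusted p = 0.0105), and Axin2 stood at 0.26 (adjusted p = 0.0454), under the fold threshold. With the osteoblast score Notum was at 2.26 (adjusted p = 4.27e-08), Dkk1 was called higher at 0.56 (adjusted p = 0.0383), and Dkk2 (0.87, adjusted p = 0.0730) and Sfrp4 (-0.45, adjusted p = 0.0808) were not called. Wif1, which follows that score most closely, passed the adjusted p there just under the fold threshold, at 0.497 (adjusted p = 0.00129) in vehicle-treated and 0.49 (adjusted p = 0.00532) in AP-treated against young mice. With the marrow stromal score, where 763 in place of 1748 of all genes were called, Dkk3 (-1.15, adjusted p = 2.33e-04) and Notum (1.94, adjusted p = 7.86e-04) were called, and Dkk2 (0.73, adjusted p = 0.211), Sfrp4 (-0.46, adjusted p = 0.190) and Frzb (-0.92, adjusted p = 0.0512) were not. With the tendon score Dkk3 was called at -1.17 (adjusted p = 2.46e-09), and the other called genes were the same 4 as without a score. In AP-treated against young mice, Dkk2 was called with the skeletal muscle score (0.70, adjusted p = 0.0411). Dkk1 was called there with the osteoblast score (0.75, adjusted p = 0.0137), while Sfrp4 (-0.36, adjusted p = 0.276) and Frzb (-0.75, adjusted p = 0.134) were not. With the fibroblast score Sfrp4 (-0.14, adjusted p = 0.732) and Frzb (-0.22, adjusted p = 0.745) were not called in that comparison. The same held for both with the marrow stromal score (-0.52, adjusted p = 0.0925, and -0.68, adjusted p = 0.128) and for Frzb with the tendon score (-0.65, adjusted p = 0.0967). A score that itself differs with age takes part of the age difference into its own term, and the part of cell makeup in these changes was not tested by another measure.

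**Figure D4:**
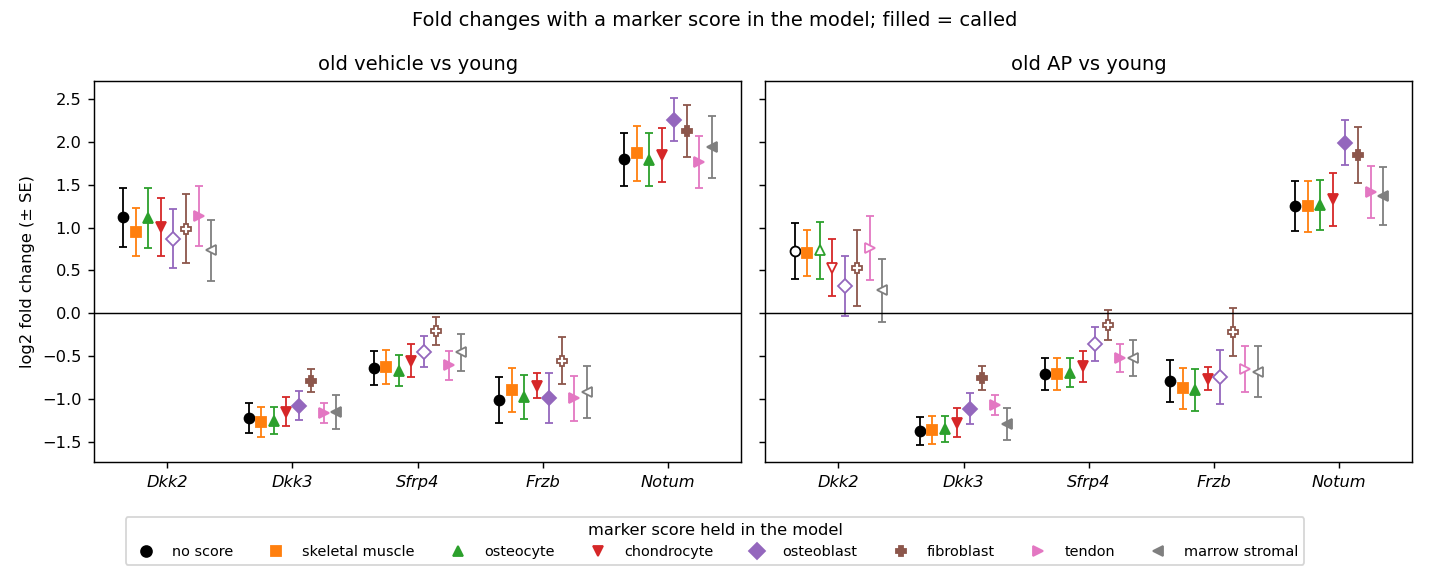
Log2 fold changes (with bars of 1 SE on each side) of the 5 genes called in vehicle-treated against young mice, fitted without a score and with 1 of 7 marker scores in the model, for vehicle-treated (left) and AP-treated (right) against young mice, with filled symbols where the gene was called. Dkk3 and Notum are filled throughout, whereas Sfrp4 moves from -0.64 to -0.21 and Frzb from -1.02 to -0.55 with the fibroblast score in the vehicle-treated mice.

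Among the 45 pairs of the 10 genes, 15 had an adjusted p under 0.05 for r over the 41 mice with group means removed (100000 permutations within groups), and all 15 were positive. The share among pairs of other genes was not computed, so the count is not shown to be particular to these genes. Wif1 and Notum were the closest pair (r = 0.84, rho = 0.89, adjusted p = 1.50e-04 and 4.50e-04, r = 0.84 without the 2 farthest mice), and the r was 0.85 in young, 0.86 in vehicle-treated and 0.90 in AP-treated mice. The levels of the pair with age were unlike, as Notum was called higher and Wif1 was not. Dkk3 and Sfrp2 (r = 0.71, rho = 0.60, adjusted p = 1.50e-04 and 0.00135) and Dkk3 and Sfrp4 (r = 0.67, rho = 0.58, adjusted p = 1.50e-04 and 0.00135) followed, with r of 0.75 and 0.68 without the 2 farthest mice. Sfrp1 varied with Wif1 (r = 0.62, rho = 0.64, adjusted p = 2.25e-04 and 4.50e-04, r = 0.58) and Sfrp2 with Sfrp4 (r = 0.61, rho = 0.50, adjusted p = 8.25e-04 and 0.00573, r = 0.57). Dkk2 and Axin2, the antagonist and the target gene whose start regions are printed above, had an r of 0.60 (rho = 0.54, adjusted p = 4.50e-04 and 0.00366, r = 0.67), and it was positive within each group, at 0.71, 0.57 and 0.55. Both genes had their highest r with the skeletal muscle score (0.62 and 0.70), and the part of muscle content in this pair was not tested. No antagonist had a negative relation with Axin2 past the threshold, and the lowest r was that of Sfrp1 and Axin2 (r = -0.24, rho = -0.22, adjusted p = 0.205 and 0.260).

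**Figure D5:**
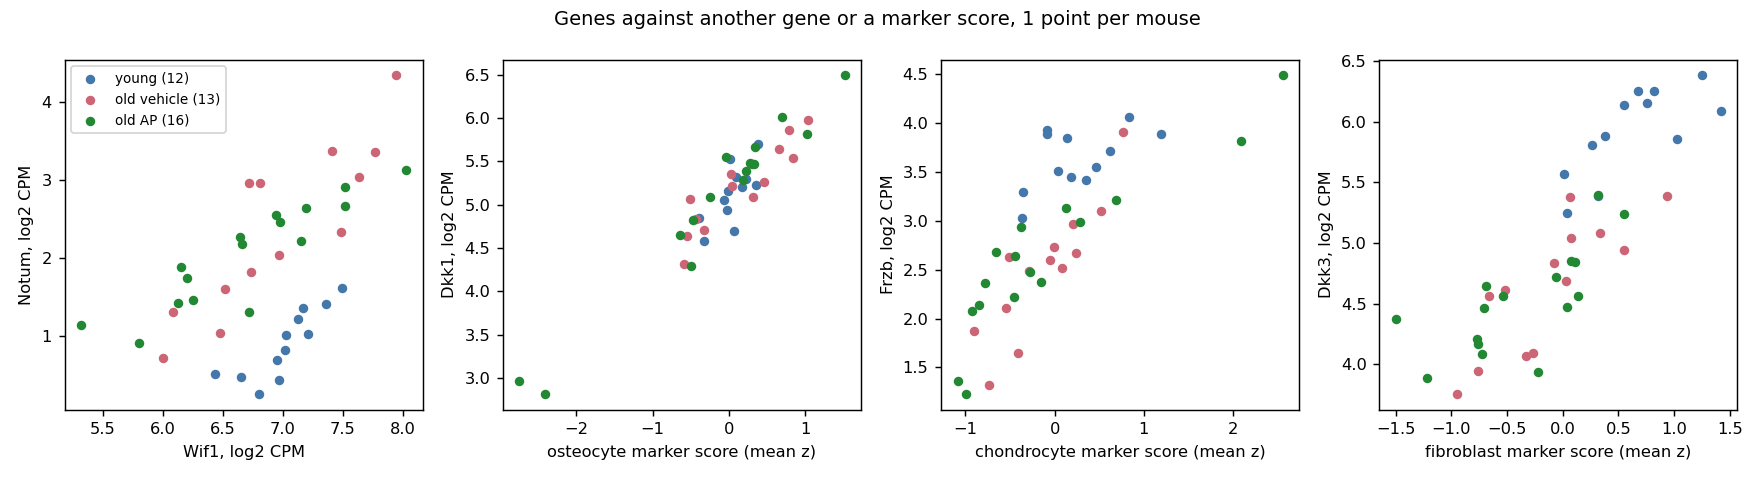
Notum against Wif1, Dkk1 against the osteocyte score, Frzb against the chondrocyte score and Dkk3 against the fibroblast score, with 1 point per mouse coloured by group and levels in log2 CPM. At a given Wif1 level the young mice lie below the old mice in the first panel, most young mice lie in the upper part of the Frzb and Dkk3 panels, and AP-treated mice 18 and 19 are the 2 points at the far left of the Dkk1 panel and at the far right of the Frzb panel.

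Against Cdkn2a, whose promoter fragment drives the transgene, 2 of the 10 genes had an adjusted p under 0.05 for r in the same kind of test. The share among other genes was not computed here either. Notum had an r of 0.56 (rho = 0.59, adjusted p = 0.00470 and 7.00e-04, r = 0.76 without the 2 farthest mice), with 0.55 in young, 0.75 in vehicle-treated and 0.32 in AP-treated mice. Wif1 had an r of 0.44 (rho = 0.53, adjusted p = 0.0405 and 0.00250, r = 0.70 without the 2 farthest mice), with 0.58 in young and 0.85 in vehicle-treated mice but 0.10 in AP-treated mice. These differences between groups were not tested. Without vehicle-treated mouse 16 the adjusted p of r was 0.00970 for Notum and 0.0734 for Wif1, and without mice 18 and 19 it was 0.0116 and 0.0834. The adjusted p of rho was 0.00200 for Notum and 0.00520 for Wif1 without mouse 16, and 0.00400 and 0.00645 without mice 18 and 19. Sfrp4 passed by rho alone (r = 0.33, rho = 0.39, adjusted p = 0.100 and 0.0458). Its adjusted p of rho was 0.0808 without mouse 16 and 0.0472 without mice 18 and 19. Dkk1 had an r of 0.22 with Cdkn2a (rho = 0.25, adjusted p = 0.275 and 0.196), and of 0.06 (rho = 0.17, adjusted p = 0.743 and 0.372) without mice 18 and 19, where the r within AP-treated mice was -0.10 in place of 0.27. Beside these values, Cdkn2a itself had its highest r with the macrophage score (r = 0.63, rho = 0.53, adjusted p = 2.88e-04 and 0.00326, r = 0.55 without the 2 farthest mice), with which Notum had an r of 0.31 (rho = 0.40, adjusted p = 0.184 and 0.0411, r = 0.17) and Wif1 an r of 0.28 (rho = 0.34, adjusted p = 0.219 and 0.0890, r = 0.15). With the osteoblast score, which Notum and Wif1 follow, Cdkn2a had an r of 0.38 (rho = 0.57, adjusted p = 0.0668 and 0.00196, r = 0.68). The part of macrophage and osteoblast content in the relations with Cdkn2a was not tested.

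For each gene called with age, the 3 genes most like it were sought among the 15540 genes with a mean of at least 1 CPM, by r over the 41 mice with group means removed, as a description. Notum was most like Kctd17 (r = 0.86), Gli2 (0.85), a transcription factor of Hedgehog signalling, and Wif1 (0.84). Dkk3 was most like Thbs2 (0.87), Aspn (0.87) and Col8a2 (0.87), which encode matrix proteins. Frzb was most like Colgalt2 (0.82), Chadl (0.81) and Col9a2 (0.81), of which Col9a2 is a cartilage collagen chain and also in the chondrocyte score. Sfrp4 was most like Nsg1 (0.84), Lima1 (0.83) and Emp1 (0.79), and Dkk2 was most like RP24-79E2.2 (0.86), Lgi1 (0.84) and Pcp4l1 (0.83).

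The rest of the pathway was followed through a list of 70 other genes, of which 65 were tested. In vehicle-treated against young mice 4 were called higher and 2 lower, near the 9.06% called over all genes, with a median log2 fold change of 0.13, and none was called between AP-treated and vehicle-treated mice. The secreted inhibitor Sost, which encodes sclerostin of osteocytes, rose from 190.9 ± 34.7 CPM (SD, n = 12) to 332.1 ± 122.5 (n = 13), a log2 fold change of 0.80 ± 0.29 (adjusted p = 0.0440), and Draxin fell (-0.98 ± 0.22, adjusted p = 0.00163). Of 20 receptors and co-receptors tested, Fzd10 (1.14 ± 0.39, adjusted p = 0.0344), a Frizzled read at under 1 CPM, Lgr6 (0.64 ± 0.15, adjusted p = 0.00166), a receptor of R-spondins, and Kremen1 (0.504 ± 0.17, adjusted p = 0.0274), a co-receptor of Dkk proteins, rose. Others had an adjusted p under 0.05 inside the fold threshold and were not called. Of these, Fzd7 was higher (0.49 ± 0.16, adjusted p = 0.0260). Fzd5 (-0.45 ± 0.16, adjusted p = 0.0409), Fzd8 (-0.44 ± 0.16, adjusted p = 0.0463) and Lrp5 (-0.40 ± 0.14, adjusted p = 0.0466) were lower. Rspo2, a secreted ligand that raises Wnt signalling, fell from 7.13 ± 2.35 to 3.27 ± 1.21 CPM (log2 fold change -1.13 ± 0.21, adjusted p = 1.59e-04) and was the only one called of 7 R-spondins and genes of secretion and receptor turnover.

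None of 22 cytoplasmic and nuclear components was called in any of the 3 comparisons. Of these 22, 6 had an adjusted p under 0.05 with a log2 fold change inside the threshold in vehicle-treated and 5 in AP-treated against young mice. Of all 19292 genes tested, 3736 had an adjusted p under 0.05 in vehicle-treated against young mice, and 1748 of these were called. In AP-treated against young mice 3437 did, and 1655 of these were called. Gsk3a, a kinase of the complex that degrades beta-catenin, was among the 6 and was named after its values were seen. It lay at 82.8 ± 5.63 CPM in young and 110.6 ± 11.3 in vehicle-treated mice, without overlap (log2 fold change 0.42 ± 0.05, adjusted p = 4.47e-07). The share of all genes without overlap is not given here. None of 12 other target genes of beta-catenin was called in vehicle-treated against young mice, where their median log2 fold change was -0.04. In AP-treated against young mice 4 of the 65 genes were called higher and 5 lower, beside 8.58% of all genes, with Sost at 1.05 ± 0.28 (adjusted p = 0.00754), Fzd10 at 1.28 ± 0.38 (adjusted p = 0.0160), Sostdc1 at 0.97 ± 0.33 (adjusted p = 0.0375) and Lgr6 at 0.73 ± 0.14 (adjusted p = 3.66e-04). Rspo2 was lower at -1.31 ± 0.19 (adjusted p = 8.64e-06), as were the target gene Twist1 (-0.90 ± 0.20, adjusted p = 0.00175), the receptor Fzd8 (-0.69 ± 0.15, adjusted p = 0.00160) and the co-receptors Lrp5 (-0.61 ± 0.14, adjusted p = 0.00170) and Lrp4 (-0.57 ± 0.19, adjusted p = 0.0301). These fold changes stand beside the same osteoblast and fibroblast sums as those of the 10 genes, and the part of cell makeup in them was not tested.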

How the data were processed

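The authors sequenced RNA from tibiae on a HiSeq2000 and deposited raw counts per gene for 41 mice. Their processing notes name TopHat2 2.0.6, HTSeq and GRCm38; the annotation release and the strand setting are not given in the sources used here, so overlapping genes may share reads. R 4.3.3 with edgeR 4.0.16 gave TMM scaling, the expression filter (19292 genes kept) and a quasi-likelihood test in 1 model of the 3 groups, with the study's threshold (adjusted p under 0.05, log2 fold change beyond 0.5). DESeq2 1.42.0 and limma-voom (limma 3.58.1) were alternatives, with other scaling, no filter, marker scores as covariates and each mouse left out in turn. Counts of any 2 mice of a group differed by at least 30.7 times the counting variance, and the labels do not state how the mice were housed or batched.

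Correlations used log2 CPM with a prior count of 2 and permutations within groups (NumPy 2.4.6), Benjamini-Hochberg adjusted. The scripts were tested on simulated data. Named genes were the 10 genes, up to 5 called pathway genes per direction, the 3 genes most like each called gene, Cdkn2a, Cdkn1a and markers of the scores used. Genes, lists and covariates were chosen with earlier results of these data known. The marrow stromal and tendon covariates, the fits without mice 18 and 19 and the coefficients of variation with a mouse left out were chosen after seeing the data. Protein sequences were not used here.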

Additional observations from a re-analysis of the deposited data

How the results depend on the processing

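The same 5, 0 and 4 of the 10 genes were called in vehicle-treated against young, AP-treated against vehicle-treated and AP-treated against young mice in each fit that left out 1 mouse of the groups compared (25, 29 and 28 fits), and Dkk3 and Notum were called against the young mice in every one of the 15 other settings, where that comparison was refitted. With the fibroblast score, 2 genes were called in AP-treated against young mice, and with the marrow stromal score 2 in both comparisons with young mice (Dkk3 and Notum each time). With the osteoblast score 3 were called in AP-treated against young mice (Dkk1, Dkk3 and Notum), and with the tendon score 3 (Dkk3, Sfrp4 and Notum). By r, the Cdkn2a relations past the threshold were 1 in place of 2 without mouse 16, and 1 without mice 18 and 19. The changes of sign were in log2 fold changes that were not called. Under limma-voom these were Sfrp2 (-0.037) and Wif1 (-0.16) in vehicle-treated against young and Dkk3 (0.011) and Sfrp1 (0.037) in AP-treated against vehicle-treated mice. Sfrp1 in AP-treated against young mice stood at -0.0074 with no filter, -0.0036 in a model of 2 groups and -0.0024 with the chondrocyte score. With marker scores the signs turned for Axin2 (0.021, muscle and 0.0023, tendon), Sfrp4 (0.087, osteoblast, 0.071, fibroblast and 0.084, tendon) and Dkk3 (0.034, fibroblast and 0.094, tendon) in AP-treated against vehicle-treated, for Dkk1 (-0.019, osteocyte) in vehicle-treated against young, and for Sfrp2 (0.10, osteoblast and 0.54, fibroblast) and Wif1 (0.49, osteoblast, 0.22, fibroblast and 0.12, marrow stromal) in AP-treated against young mice. Frzb in AP-treated against vehicle-treated mice was -0.13 without mice 18 and 19. The cause was not tested for any of these. With 1 mouse left out, the ranges that crossed 0 were -0.063 to 0.047 for Sfrp1 in AP-treated against young, -0.052 to 0.11 for Wif1 and -0.11 to 0.16 for Sfrp2 in vehicle-treated against young, and -0.062 to 0.14 for Dkk1 and -0.00039 to 0.40 for Frzb in AP-treated against vehicle-treated mice.

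Over all genes, 14 were called between AP-treated and vehicle-treated mice, against 200 by DESeq2, 31 by limma-voom, 94 with the marrow stromal score and 0 with no filter, in a model of 2 groups, with the fibroblast or tendon score or without mice 18 and 19. Without the fold threshold 3736, 33 and 3437 genes passed in the 3 comparisons, against 1748, 14 and 1655. Called genes in AP-treated against young mice numbered 805 with the osteoblast, 814 with the fibroblast and 1096 with the marrow stromal score, and 763 in vehicle-treated against young mice with the last. No paired analysis was possible because each mouse has a number of its own. At under 100 reads in a mouse for Notum, Dkk2 and Sfrp2, counting error adds to the spread of their low values.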
